A study of Homo sapiens with 10 samples.

Results

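Forkhead (FOX) genes encode transcription factors that share a winged-helix DNA-binding domain. The genes described here were taken from the rows of the RNA-seq count table whose symbol is FOX followed by a subfamily letter from A to S and a number, and FOXD3, FOXA2 and FOXH1 are not among them. They numbered 45 of the 31017 genes in the table. The promoter of 34 of the 45 lay on a baited fragment of the promoter capture Hi-C (PCHi-C) lists. In PCHi-C, the ligated fragment pairs of a Hi-C library are captured with RNA baits against promoters. Each called contact joins a bait, the HindIII restriction fragment that holds the gene start, to another HindIII fragment, the promoter-interacting region (PIR).

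Forkhead factors bind DNA mostly as monomers, and several of them can open compact chromatin. The FOXO proteins are held in the cytoplasm by AKT when insulin signalling is on and return to the nucleus when it is off. FOXA proteins act early in endoderm, FOXC and FOXF proteins in mesoderm, FOXJ1 in cells with motile cilia, and FOXM1 in the G2/M phase of the cell cycle.

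The cells were the human embryonic stem cell (ESC) line H9, grown in Pluripro medium and matrix, and neuroectodermal cells (NECs) derived from it and harvested on day 7. No gene was altered in either cell type, and both came from the same line, so the results describe 1 genetic background. RNA-seq and PCHi-C each had 2 biological replicates per cell type, and ESC replicate 2 of PCHi-C combined technical replicates. RNA-seq libraries held 19234087 and 25356382 counts in ESCs, against 20793224 and 24323762 in NECs. The ESC libraries shared 1 lane of the sequencer and the NEC libraries shared a different one, so lane and cell type cannot be told apart. The PCHi-C replicate lists held between 81168 and 100305 calls with a CHiCAGO score of at least 12. The score rises as the distance-weighted p-value of a fragment pair falls. Read numbers are not part of the lists, which leaves the depth of each call unknown.

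The pluripotency and neuroectoderm markers matched the labels. Of 10 pluripotency genes 9 were called lower in NECs, and their summed level was 6584 and 7075 CPM (counts per 1e6 counts of the library, TMM-scaled) in the ESC libraries against 1084 and 1670 in the NEC libraries. All 10 neuroectoderm genes were called higher. Of 9 tested anterior neural genes 6 were called higher and 1 lower (3 lower by the adjusted p alone), and their summed level was 279 and 179 CPM in ESCs against 172 and 118 in NECs. SIX3 and LHX2 stand in both of these lists. Lists of other cell types moved as well. Among 10 neural crest genes 7 were higher and 1 was lower, and their summed level was 117 and 114 CPM in ESCs, most of it from ETS1, against 237 and 83.1 in the NEC libraries. Of 10 endoderm genes 5 were higher and 3 lower, of 7 tested mesoderm genes 2 were higher and 3 lower, and of 6 tested placode and surface ectoderm genes 3 were higher. Across all tested genes 11.4% were called higher and 9.68% lower. In bulk samples such as these, fewer cells of a type and less RNA per cell cannot be told apart.

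The first question was which forkhead genes were expressed in ESCs, in NECs or in both. Levels of different genes are compared as CPM per kb of annotated exon, which could be computed for 44 of the 45. FOXM1 was the highest in both cell types, with a mean of 42.2 CPM per kb in ESCs and 33.5 in NECs. In ESCs it was followed by FOXN3 (17.5), FOXO1 (14.3), FOXO4 (10.4) and FOXJ3 (9.99). In NECs the next were FOXP4 (11.2), FOXK2 (9.83), FOXJ3 (8.71) and FOXB1 (8.15). FOXM1 and FOXJ3 were thus in the leading 5 of both cell types, whereas FOXN3, FOXO1 and FOXO4 left it and FOXP4, FOXK2 and FOXB1 entered it. At the other end, 12 of the 45 genes had 3 counts or fewer in every library, and 4 of these (FOXD4L4, FOXD4L6, FOXN1 and FOXR2) had none.

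**Figure D1:**
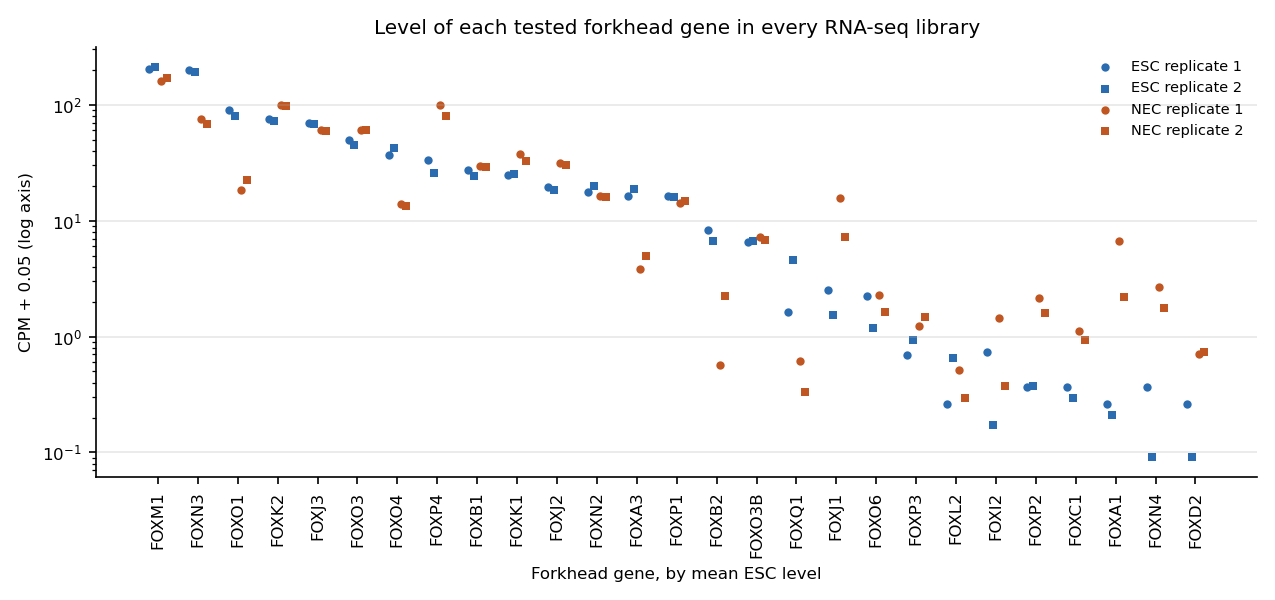
The plot shows the level of the 27 tested forkhead genes in each of the 4 RNA-seq libraries, as CPM plus 0.05 on a log axis, ordered by mean ESC level (blue, ESC; orange, NEC; circles, replicate 1; squares, replicate 2). FOXM1 leads on the left at 202 and 214 CPM in ESCs, and FOXP2, FOXC1, FOXA1, FOXN4 and FOXD2 on the right lie higher in both NEC libraries than in both ESC libraries.

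Expression was then compared between the cell types across all genes. A gene was called when the quasi-likelihood test of edgeR gave an adjusted p under 0.05 and the log2 fold change (NEC minus ESC) lay beyond 1.5 in either direction. Of the 45 forkhead genes 27 had enough counts to be tested, and the filter keeps a low gene when it is raised in 1 cell type. FOXA1, FOXN4, FOXJ1, FOXP2, FOXD2, FOXC1 and FOXP4 were called higher in NECs. These 7 were 25.9% of the tested forkhead genes, against 11.4% of all tested genes. FOXQ1, FOXB2, FOXO1, FOXA3 and FOXO4 were called lower. These 5 were 18.5%, against 9.68% of all genes. A further 6 had an adjusted p under 0.05 with a smaller change, which brought the number past that limit to 18 (66.7%, against 61.1% of all genes). The median log2 fold change was 0.227 over the tested forkhead genes and 0.014 over all tested genes.

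**Figure D2:**
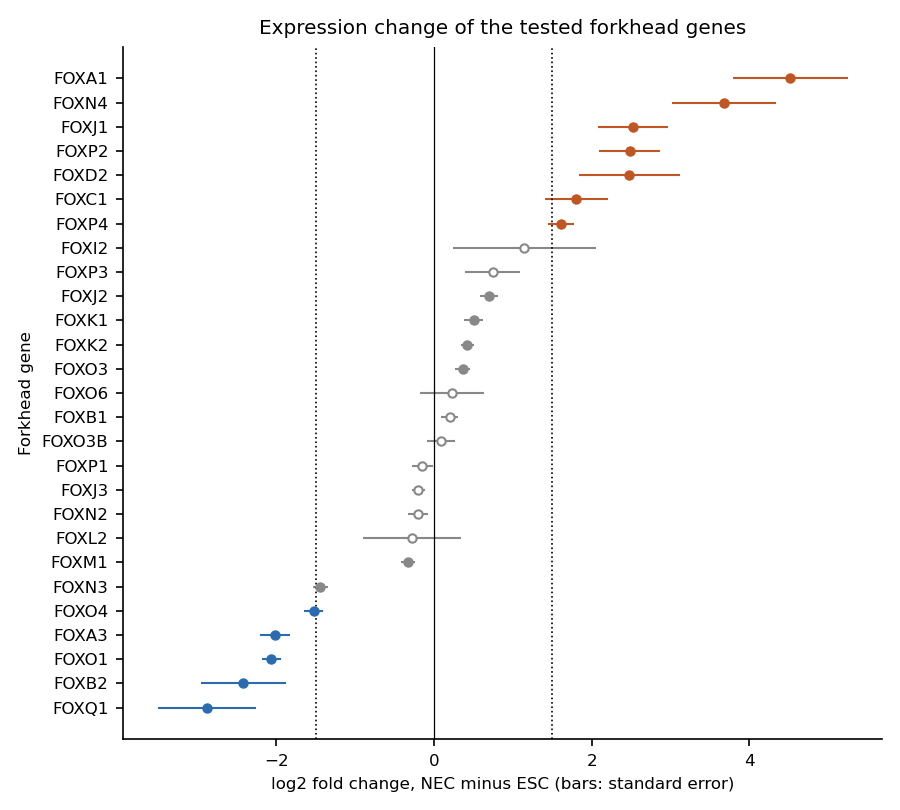
The plot shows the log2 fold change (NEC minus ESC) and its standard error for the 27 tested forkhead genes; filled points have an adjusted p under 0.05, and coloured points passed the fold limit of 1.5 (dotted lines) as well. FOXA1 lies farthest to the right at 4.52 and FOXQ1 farthest to the left at -2.88.

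FOXN4 acts in progenitors of the retina and spinal cord. It had 6 and 1 counts in ESCs and 56 and 42 in NECs, with a log2 fold change (±SE) of 3.67 ± 0.66 (adjusted p = 0.0035). FOXD2, a gene of mesoderm and kidney, had 4 and 1 counts in ESCs and 14 and 17 in NECs (log2 fold change 2.48 ± 0.64, adjusted p = 0.0146). FOXC1, which acts in mesoderm, the eye and the meninges, had 6 in both ESC libraries and 23 and 22 in NECs (1.81 ± 0.40, adjusted p = 0.0084). The NEC counts were higher in each library, but the FOXD2 and FOXC1 calls rest on few reads. The FOXD2 change was 3.87 without ESC replicate 1 and 1.63 without ESC replicate 2, and the FOXN4 change was 5.54 and 2.73. With DESeq2's test the adjusted p was 0.13 for FOXD2 and 0.121 for FOXC1, and over all alternatives it ranged from 0.00604 to 0.147 and from 0.00598 to 0.121.

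FOXA1 is a pioneer factor of endoderm and of ventral midline cells. It had 4 counts in each ESC library and 141 and 53 in the NEC libraries, with a log2 fold change (±SE) of 4.52 ± 0.72 (adjusted p = 0.0022). The NEC libraries stood apart, at 6.60 and 2.15 CPM, and the change was 3.51 without NEC replicate 1 and 5.12 without NEC replicate 2. TTC6, which overlaps FOXA1 on the other strand, had 14 and 1 counts in them. FOXA3, a regulator of liver and gut genes, moved the other way, from 16.4 and 18.6 CPM in ESCs to 3.74 and 4.86 in NECs (log2 fold change -2.02 ± 0.19, adjusted p = 0.000305). The ESC and NEC values did not overlap for either gene. The 10 endoderm markers were divided too: APOA1, AFP, CXCR4 and HNF4A were called higher, TTR had no count in ESCs and was called higher, and CER1, SOX17 and GATA4 were called lower. Their summed level was 79.1 and 149 CPM in ESCs and 166 and 238 in NECs. Between the NEC libraries this sum ran opposite to FOXA1, with AFP alone at 45.0 and 104.5 CPM. By gene the endoderm list was split, with 4 higher and 6 lower in the first NEC library than in the second. All 10 neural crest genes had, like FOXA1, their higher level in the first of the NEC libraries, among them PAX3 (66.3 and 17.9 CPM) and MSX1 (23.1 and 5.88 CPM). The same held for 11 of 12 anterior neural and 9 of 10 neuroectoderm genes, and for 0 of 10 pluripotency genes. The part of any of these lists in the FOXA values was not tested.

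The FOXP genes encode forkhead repressors that bind DNA as dimers, and FOXP2 is known for its role in speech. FOXP2 rose from 6 and 8 counts in ESCs to 45 and 38 in NECs (log2 fold change 2.48 ± 0.38, adjusted p = 0.0019). FOXP4 was far more abundant and rose from 33.6 and 25.5 CPM to 99.8 and 80.4 CPM (1.61 ± 0.17, adjusted p = 0.000414). Its change lay just past the fold limit and fell to 1.42 without ESC replicate 2 and to 1.45 without NEC replicate 1. FOXP1 had 16.2 and 15.8 CPM in ESCs and 14.04 and 14.84 in NECs, and its change of -0.15 ± 0.13 did not pass the test (adjusted p = 0.358). FOXP3, the regulatory T cell factor, had 12 and 22 counts in ESCs and 25 and 35 in NECs (0.75 ± 0.35, adjusted p = 0.105), and its row overlaps CCDC22 on the other strand, whose reads cannot be separated here.

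FOXO factors turn on genes of cell cycle arrest, stress defence and metabolism when AKT is inactive. FOXO1 fell from 89.5 and 80.6 CPM in ESCs to 18.5 and 22.2 in NECs, with a log2 fold change (±SE) of -2.06 ± 0.12 (adjusted p = 6.1e-05). FOXO4 fell from 36.7 and 42.0 CPM to 13.9 and 13.4 (-1.53 ± 0.12, adjusted p = 0.000154). The FOXO4 change was -1.46 under scaling by library size alone and -1.43 without ESC replicate 2, short of the fold limit in both. FOXO3 moved the other way within the fold limit, from 49.7 and 44.7 CPM to 60.6 and 60.7 (0.36 ± 0.10, adjusted p = 0.0159), but its adjusted p was 0.147 without ESC replicate 2. FOXO6, a form expressed in brain, had 2.17 and 1.13 CPM in ESCs and 2.25 and 1.58 in NECs (adjusted p = 0.648). FOXO3B, a copy of FOXO3 with near-identical sequence, had 6.46 and 6.63 CPM in ESCs against 7.11 and 6.81 in NECs. Its row overlaps AC026271.1 on the other strand by 3001 bp, and reads in the overlap cannot be separated here. AC026271.1 had 286 to 487 counts in each library. Reads of FOXO3 and FOXO3B could not be fully told apart. Summed over the 5 genes, the FOXO level was 185 and 175 CPM in ESCs and 102 and 105 in NECs.

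The genes around FOXO activity were taken from lists. None of 15 regulators upstream of FOXO, namely genes of insulin and PI3K signalling and the deacetylase SIRT1, was called in either direction at the fold limit by edgeR, nor by DESeq2. With the adjusted p alone 4 were higher and 6 lower, the same numbers as at an unadjusted p under 0.05, and the median log2 fold change was -0.127. Of 13 tested genes known as FOXO targets 4 were called higher and none lower by edgeR and by DESeq2, with a median of 0.935. With the adjusted p alone 9 were higher and none lower, as at an unadjusted p under 0.05. Across all tested genes 11.4% were called higher and 9.68% lower, and 61.1% passed the adjusted p in either direction. TXNIP, an inhibitor of thioredoxin, and CCNG2, an unconventional cyclin, had the largest changes, at 4.72 ± 0.50 and 2.68 ± 0.37. BCL6, a transcriptional repressor, and SESN3, a regulator of mTORC1, had the smallest among the called, at 2.34 ± 0.40 and 1.97 ± 0.10. IRS2 stands in both lists.

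FOXM1 turns on genes of mitosis. It had 202 and 214 CPM in ESCs and 159 and 171 in NECs, with a log2 fold change (±SE) of -0.34 ± 0.09 (adjusted p = 0.0165). The adjusted p was 0.055 without ESC replicate 1 and 0.138 without ESC replicate 2, above the limit of 0.05 in both. None of 15 FOXM1 target genes was called at the fold limit by edgeR, nor by DESeq2. With the adjusted p alone 5 were higher and 3 lower, as at an unadjusted p under 0.05, and the median was 0.229. Across all tested genes 61.1% passed the adjusted p in either direction. The FOXM1 row overlaps ITFG2 and C12orf32 on the other strand. These genes had 1062 to 1733 counts in each library, so some reads in the overlaps could belong to either gene.

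Among the other broadly expressed genes, FOXN3, a repressor linked to the checkpoint response, fell from 197 and 193 CPM in ESCs to 75.3 and 68.7 in NECs (-1.44 ± 0.09, adjusted p = 7.3e-05). This was short of the fold limit, and reached -1.502 without NEC replicate 1. RP11-33N16.3 lies within FOXN3 on the same strand and had 94 to 183 counts. FOXK1 and FOXK2, which bind the same sites as FOXO proteins and act in glucose metabolism, were modestly higher in NECs. FOXK1 had 463 and 618 counts in ESCs and 808 and 800 in NECs (0.50 ± 0.12, adjusted p = 0.0096). FOXK2 had 74.7 and 71.8 CPM in ESCs and 99.6 and 96.7 in NECs (0.42 ± 0.08, adjusted p = 0.0052). The adjusted p was 0.0528 for FOXK1 without ESC replicate 1 and 0.0557 for FOXK2 without ESC replicate 2. FOXJ2 had 19.3 and 18.4 CPM in ESCs and 31.3 and 29.9 in NECs (0.70 ± 0.11, adjusted p = 0.00196). Its row overlaps NECAP1 on the same strand. FOXJ3 (-0.20 ± 0.08) and FOXN2 (-0.21 ± 0.13) did not pass the test.

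FOXJ1 is the master regulator of motile cilia. It rose from 47 and 37 counts in ESCs to 331 and 178 in NECs, with a log2 fold change (±SE) of 2.52 ± 0.44 (adjusted p = 0.0031). Without NEC replicate 1 the change was 1.88. An antisense gene that shares its start region, AC018665.1, had 26 and 25 counts in ESCs and 181 and 188 in NECs and was called higher too (2.76 ± 0.26, adjusted p = 0.000293). Counting ignored strand, so reads in the overlap of 801 bp could come from either gene. Of 12 tested motile cilium genes edgeR called 7 higher and none lower, against 11.4% and 9.68% of all tested genes. Their median log2 fold change was 1.81, and DESeq2 called 6 and none. With the adjusted p alone 9 were higher and 1 lower, as at an unadjusted p under 0.05. Across all tested genes 61.1% passed the adjusted p in either direction. TEKT2, a tektin of the axoneme, rose by 4.41 ± 0.40, and SPAG6, a central-pair protein, had 3 and 2 counts in ESCs and 98 and 29 in NECs. DNAH9 and DNAI1, of the dynein arms, had the smallest changes among the called, at 1.62 ± 0.39 and 1.99 ± 0.57. The dynein heavy chain DNAH11 had a change of -1.40 ± 0.13.

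**Figure D3:**
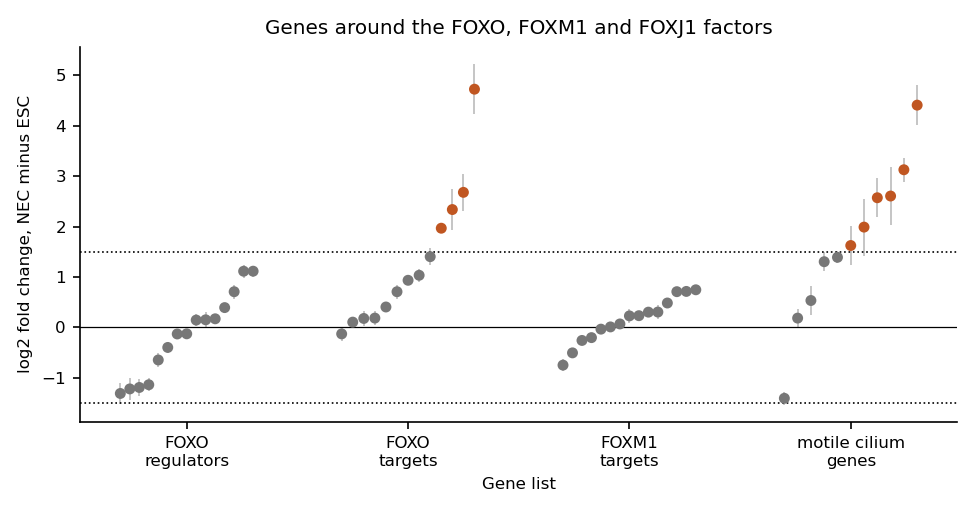
The plot shows the log2 fold change (NEC minus ESC) with its standard error of each tested gene of the FOXO regulator, FOXO target, FOXM1 target and motile cilium lists, with called genes in orange and the fold limit of 1.5 dotted; SPAG6, at 3 counts or fewer in both ESC libraries, is left out. Called genes lie in the FOXO target list (4) and the motile cilium list (6 of the 7 called), and none in the other lists.

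FOXB1 and FOXB2 act in the developing midbrain, diencephalon and spinal cord. FOXB1 had 27.1 and 24.2 CPM in ESCs and 29.6 and 29.2 in NECs (0.20 ± 0.11, adjusted p = 0.164). FOXB2 fell from 155 and 164 counts in ESCs to 11 and 54 in NECs (-2.42 ± 0.54, adjusted p = 0.0083). The ESC libraries were close together, whereas the NEC libraries stood apart, and the change was -1.75 without NEC replicate 1 and -3.83 without NEC replicate 2. All 10 pluripotency genes were likewise lower in the first NEC library than in the second, among them POU5F1 (31.0 and 111 CPM) and NANOG (0.562 and 2.03 CPM), and their part in the FOXB2 value was not tested. FOXQ1, a gene of epithelia and hair, had 30 and 112 counts in ESCs and 12 and 7 in NECs (-2.88 ± 0.62, adjusted p = 0.0074). The ESC replicates differed from each other for this gene, at 1.59 and 4.53 CPM. The mesoderm markers EOMES (15.3 and 45.8 CPM) and MIXL1 (10.2 and 23.3 CPM) and the endoderm marker CER1 (53.2 and 114 CPM) differed between them in the same direction, and their part in the FOXQ1 value was not tested. Without ESC replicate 2 the FOXQ1 change was -1.92 (adjusted p = 0.0387, against 6.64e-06 to 0.0268 under the other alternatives).

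FOXL2, a factor of the ovary, had 4 and 15 counts in ESCs and 10 and 6 in NECs, and FOXI2 had 13 and 3 against 30 and 8. Neither passed the test. The 18 genes not tested had at most 19 counts in any library. Among them, FOXF2 had 1 and 5 counts in ESCs and 9 and 15 in NECs. FOXS1 had 4 and 2, then 8 and 19, and FOXE3 had 2 and 2, then 4 and 8. FOXE1 had 1 and 1, then 2 and 2, and FOXD4L2 had 0 and 0, then 1 and 1. The share of all untested genes with non-overlapping counts was not computed, so no difference is read from these counts. FOXI1 had 3 and 2 counts in ESCs and none in NECs. FOXD4 and the 6 FOXD4-like copies have near-identical sequences, to which short reads cannot be assigned with certainty, and none had more than 4 counts in any library. The antisense and intronic transcripts FOXP1-AS1 and FOXP1-IT1 had at most 1 count in each library.

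The second question was which fragments the forkhead promoters contacted in each cell type. The merged calls score the pooled reads of both replicates anew. Those of ESCs held 243 PIRs of forkhead promoters and those of NECs 259, and 108 were listed in both, or 44.4% of the ESC and 41.7% of the NEC contacts. Over all baits the shared part was 44.2% and 44.3%. The median number of PIRs per forkhead promoter was 5 in ESCs and 5.5 in NECs, against 3 in both over the 18038 baits that hold a gene start. PIRs of forkhead promoters lay at a median distance of 235 kb in the ESC merged calls and 346 kb in those of NECs, against 197 kb and 217 kb over all baits. These medians pool promoters with unequal numbers of contacts. FOXC2 had 36 contacts in ESCs and 34 in NECs, at medians of 490 and 571 kb. FOXP2 had 20 and 33, at medians of 587 and 576 kb. FOXA3 had 3 in each, at a median of 24 kb in both. Of 394 distinct contacts, 115 PIRs were intergenic, 82 overlapped introns without an exon, and 197 overlapped an exon. In 59 the PIR held another gene start of the count table.

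Promoters were compared between cell types by their number of PIRs in each replicate. Both NEC replicates lay above both ESC replicates for FOXP1, FOXN3, FOXE3 and FOXP3, although FOXE3 had fewer PIRs in the merged NEC than ESC calls. These were 4 of 34 forkhead promoters with a call, against 13.7% of the 17981 gene-start baits with a call. Both ESC replicates lay above both NEC replicates for FOXR1, FOXE1, FOXA1, FOXM1 and FOXJ1, or 5 of 34, against 12.7% of those baits. Both shares were near those of all baits. Of the 7 genes called higher in NECs, 3 had more PIRs in the NEC merged calls and 4 had fewer, and of the 5 called lower 2 had more and 3 had equal numbers.

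**Figure D4:**
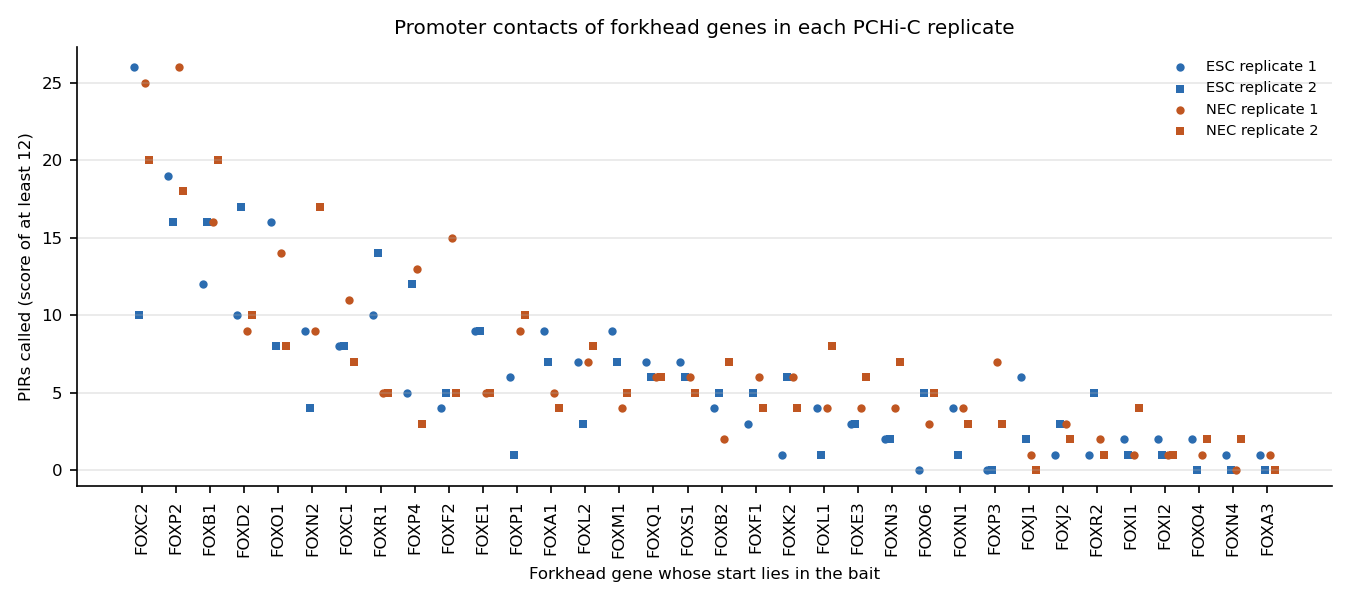
The plot shows the number of PIRs called in each PCHi-C replicate for the 34 forkhead promoters, ordered by their sum (blue, ESC; orange, NEC; circles, replicate 1; squares, replicate 2). FOXC2 leads with 26 and 10 PIRs in ESCs against 25 and 20 in NECs, and most promoters have overlapping replicates.

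**Figure D5:**
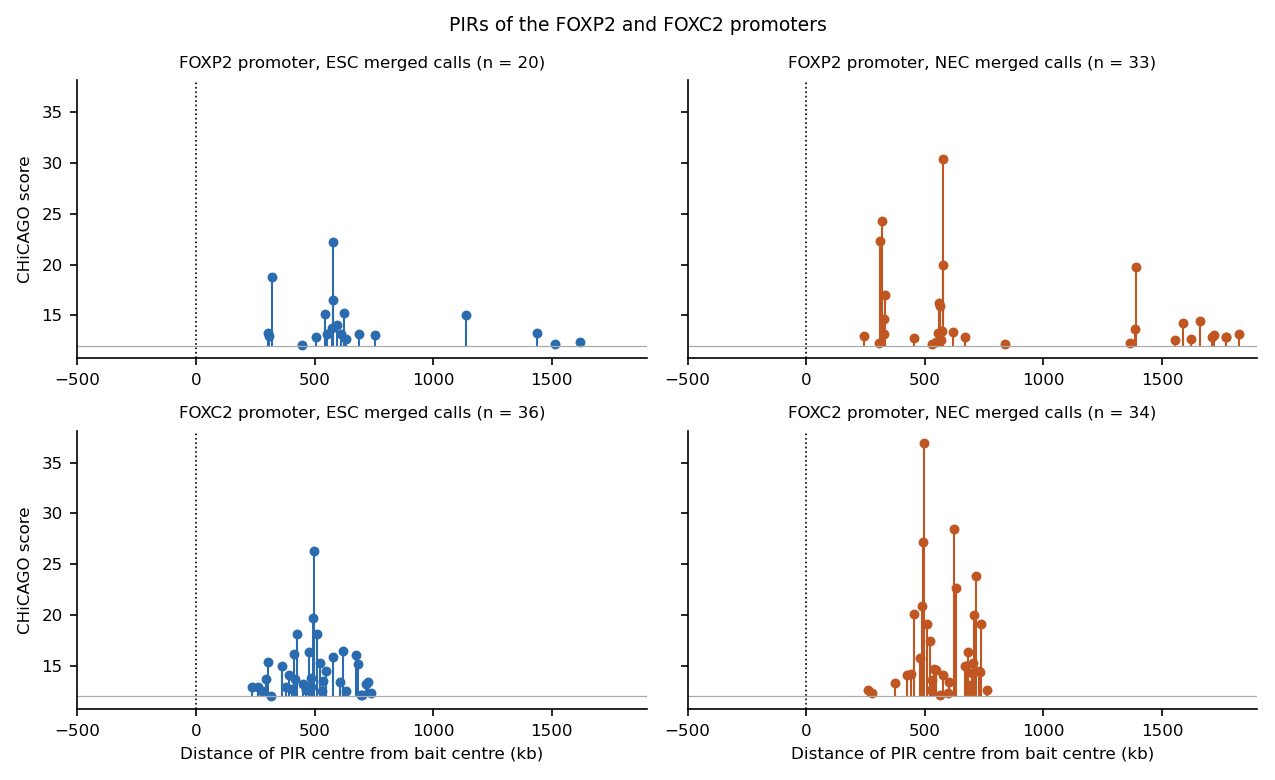
The plot shows the CHiCAGO score of every merged PIR call against the distance in kb of its centre from the bait centre, for the FOXP2 (top) and FOXC2 (bottom) promoters in ESCs (left) and NECs (right), with the bait dotted and the score limit of 12 in grey. FOXP2 has 20 PIRs in ESCs against 33 in NECs and FOXC2 has 36 against 34, and the PIRs of both promoters lie to the right of the bait.

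FOXP2 had the second highest number of PIRs over both merged lists. Its bait (chr7:113722909-113730629, GRCh37) had 19 and 16 PIRs in the ESC replicates against 26 and 18 in the NEC replicates, which overlapped. The merged calls held 20 and 33, with 8 in common. All 45 distinct PIRs lay on the side of the gene body, and 22 of them lay within FOXP2 itself, 11 of those called in ESCs and 18 of those called in NECs. A contact was retained when it was called in all 4 replicates. A retained PIR at chr7:114041240-114052637, 320 kb away in an intron of FOXP2, scored 13.4 and 14.3 in ESCs and 14.99 and 17.8 in NECs. Another at chr7:114301679-114303821, which overlaps a FOXP2 exon, scored 17.4 and 14.97 in ESCs, then 21.4 and 19.4. A gained contact, called in both NEC replicates but in neither ESC replicate nor the merged ESC calls, lay between genes, beyond the FOXP2 gene, at chr7:115115728-115118790, with NEC scores of 14.2 and 18.2. The first cut sites of the intronic retained PIR and of the gained PIR are shown because such sites set the borders of the contacting fragments, and the capitals mark the HindIII recognition site (plus strand, GRCh37).
Intronic retained PIR of FOXP2, chr7:114041180-114041305: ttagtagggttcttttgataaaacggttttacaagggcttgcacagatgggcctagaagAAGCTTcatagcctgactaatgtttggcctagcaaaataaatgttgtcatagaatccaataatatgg
Gained PIR of FOXP2, chr7:115115668-115115793: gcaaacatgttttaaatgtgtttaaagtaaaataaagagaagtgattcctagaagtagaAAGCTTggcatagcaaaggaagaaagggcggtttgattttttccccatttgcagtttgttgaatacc
All 78855 distinct PIRs of the merged calls begin within such a site in the assembly. The intronic PIR held 6 matches to the forkhead core motif TGTTTAC, counted on both strands, in 11.4 kb with 33.4% G and C. The other retained PIR of FOXP2 held none in 2.14 kb (33.5% G and C), and the gained one held none in 3.06 kb (43.8%). The density was 0.15 per kb over all PIRs of forkhead promoters and 0.136 per kb over all PIRs.

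The same letters were searched in the 250 bases before each gene start. They occurred in 1 of the 45 forkhead windows (2.22%) and in 3.11% of all 30965 windows. The forkhead windows were rich in G and C, with a median of 66.0% against 54.8%. The single match was in the FOXP1 promoter, starting 143 bases before the gene start, and it is shown because FOXP1 is also a promoter whose number of PIRs differed between cell types (minus strand, 5′ to 3′, match in capitals).
FOXP1, chr3:71633141-71633390: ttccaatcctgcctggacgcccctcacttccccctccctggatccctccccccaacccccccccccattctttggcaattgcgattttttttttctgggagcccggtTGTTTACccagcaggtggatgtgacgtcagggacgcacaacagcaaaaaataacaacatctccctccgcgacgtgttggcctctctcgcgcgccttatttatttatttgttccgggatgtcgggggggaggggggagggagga
FOXP1 had 6 and 1 PIRs in the ESC replicates against 9 and 10 in the NEC replicates. Its highest score in both merged lists was with a fragment 517 kb away inside the FOXP1 gene, at 15.02 in ESCs and 15.87 in NECs.

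FOXC2, which acts in mesenchyme and lymphatic vessels, had the most PIRs over both merged lists, 36 in ESCs and 34 in NECs with 22 in common, although it had at most 5 counts of RNA in any library. The bait also holds the start of MTHFSD, which rose from 169 and 219 counts to 417 and 496 (log2 fold change 1.15 ± 0.13), so the contacts cannot be assigned to either gene. The replicates had 26 and 10 PIRs in ESCs against 25 and 20 in NECs. Retained contacts numbered 4, 3 of them on adjacent fragments from 492 to 510 kb away at the long non-coding gene LINC02181. The highest-scoring, chr16:87092182-87096538, had 21.7 and 15.9 in ESCs and 24.0 and 23.7 in NECs. The contact with chr16:87301692-87305264, which overlaps an intron of C16orf95 and exons of other annotated genes, was gained, with NEC scores of 17.6 and 12.3. FOXL1, 11.2 kb farther along, shared 6 PIRs with FOXC2, and at chr16:87092182-87096538 it was called in NECs (16.9 and 12.7) and in neither ESC replicate.

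The FOXQ1, FOXF2 and FOXC1 genes lie within 298 kb on chromosome 6. Contacts between neighbouring promoters of this cluster were called in ESCs, and that of FOXQ1 with FOXF2 in NECs as well. FOXC1 to FOXF2, 222 kb apart, was called from the FOXC1 bait in both ESC replicates (17.1 and 16.5) and in neither NEC replicate. This made it 1 of the 5 lost contacts. From the FOXF2 bait the same pair was called in no replicate, and only in the merged ESC calls at 12.2. FOXQ1 to FOXF2, 79 kb apart, was called only from the FOXQ1 bait, in both ESC replicates (12.46 and 14.04) and in NEC replicate 2 (13.0). Both merged lists held it, at 14.5 in ESCs and 13.7 in NECs. Another contact between forkhead promoters was FOXD2 to FOXE3, at 28 kb on chromosome 1. It was called only from the FOXD2 bait, in ESC replicate 2 with 12.1 and in the merged ESC calls. No contact was listed between forkhead promoters of different clusters.

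A distal fragment of chromosome 6, chr6:187372-203815, was called with different genes of this cluster in the 2 cell types. In ESCs it was called with FOXQ1, 1115 kb away, with scores of 16.27 and 12.79, and in neither NEC replicate; its merged score of 14.8 kept it out of the lost contacts. In NECs it was called with FOXF2, 1194 kb away, with scores of 19.7 and 15.8, and in neither ESC replicate. FOXQ1 was called lower in NECs, and FOXF2 was below the limit for testing, with 9 and 15 counts in NECs. The fragment holds the start of AL035696.1. FOXF2 had 4 and 5 PIRs in the ESC replicates against 15 and 5 in the NEC replicates. FOXC1 had 8 in both ESC replicates and 11 and 7 in NECs, and retained a contact 1023 kb away at chr6:2633562-2635464 with scores from 14.6 to 22.8.

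Over all forkhead promoters, 104 contacts were called in both replicates of a cell type. Of these 21 were retained, against 21.6% of such contacts over all baits. A contact was gained or lost when it was called in both replicates of 1 cell type, was absent from the replicates and merged calls of the other, and had a merged score in the highest of 5 equal groups. By this rule 3 were gained and 5 lost, each against 3.11% over all baits. They fell on FOXP2, FOXC2 and FOXF2 among the gained, and on FOXD2 (2), FOXC1, FOXE1 and FOXR1 among the lost.

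FOXD2, called higher in NECs, had 10 and 17 PIRs in the ESC replicates against 9 and 10 in the NEC replicates. It held the highest merged score of any forkhead contact (40.5 in ESCs), with a retained fragment 180 kb away at chr1:48084329-48091149 (30.2 and 31.4 in ESCs, 21.9 and 19.1 in NECs). Its lost contacts were with chr1:47687948-47692986, which overlaps an exon of TAL1 (15.7 and 23.7 in ESCs), and with chr1:47642052-47645668 (13.8 and 12.5). FOXE3, the lens gene next to it, shares its bait with RP11-511I2.2 and had 3 and 3 PIRs in ESCs against 4 and 6 in NECs. The merged calls went the other way, with 6 in ESCs and 5 in NECs. FOXE3 shared 3 PIRs with FOXD2.

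FOXA1 rose in RNA and had fewer contacts at the bait of its gene start, 9 and 7 PIRs in ESCs against 5 and 4 in NECs. The adjacent fragment, a bait that holds another FOXA1 transcript start, differed little, with 14 merged PIRs in ESCs and 13 in NECs. At the first bait, of the 10 merged ESC contacts 5 lay around NKX2-1 and SFTA3, about 1.1 Mb away, and none of these fragments was in the merged NEC calls, although 2 of them were called in 1 NEC replicate each. The contact with NKX2-1's own start scored 21.95 in ESC replicate 2 and was called in no other replicate. A fragment in MIPOL1, 352 kb away, was retained with 12.1 and 17.8 in ESCs and 16.2 and 20.0 in NECs. FOXJ1, whose bait also holds the start of AC018665.1, had 6 and 2 PIRs in ESCs against 1 and 0 in NECs. Its leading PIR lay in QRICH2, 139 kb away, at 17.5 in the merged ESC and 17.4 in the merged NEC calls.

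FOXE1, the thyroid factor, had 9 PIRs in each ESC replicate and 5 in each NEC replicate, with at most 2 counts of RNA. It retained 3 contacts 123 to 152 kb away around PTCSC2, a thyroid long non-coding RNA, and lost 1 with a fragment that overlaps an exon of XPA (16.1 and 19.6). FOXR1, a gene of early germ cells, had 10 and 14 PIRs in ESCs against 5 and 5 in NECs, with 1 read in all 4 libraries together. All 34 of its distinct merged contacts lay on the lower-coordinate side, and the lost one was between genes, 169 kb away (18.5 and 15.8). Of 11 forkhead promoters with a bait that were not tested for RNA, 10 had a PIR in a merged list.

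The FOXM1 bait also holds the starts of C12orf32 and TULP3. It had 9 and 7 PIRs in ESCs against 4 and 5 in NECs, and 2 contacts with TEAD4, 149 and 168 kb away, were retained. FOXN3 had 2 PIRs in each ESC replicate and 4 and 7 in NECs, with none in common between the merged lists. A bait at another FOXN3 transcript start went the other way in the merged calls, from 5 to 4. FOXP3 had none in either ESC replicate and 7 and 3 in NECs, of which the merged calls kept 1, with PAGE4 480 kb away. The FOXO1 replicates overlapped, at 16 and 8 in ESCs and 14 and 8 in NECs. All 20 of its distinct merged contacts lay on the side of the gene body. FOXB1 overlapped as well, at 12 and 16 in ESCs and 16 and 20 in NECs, and retained a fragment 123 kb away between genes (15.3 and 16.5, then 12.8 and 12.5).

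The remaining called genes had few contacts. FOXP4, which shares its bait with RP11-328M4.2, had 5 and 12 PIRs in ESCs against 13 and 3 in NECs. FOXN4 had 1 and 0 in ESCs and 0 and 2 in NECs, FOXO4 had 2 and 0, then 1 and 2, and FOXB2 had 4 and 5, then 2 and 7. FOXQ1 had 7 and 6 in ESCs and 6 in each NEC replicate. FOXA3, on a bait with the start of SYMPK, had 1 and 0 in both cell types. In none of these did the replicates separate the cell types.

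Retained contacts were also held by FOXS1, FOXF1, FOXK2 and FOXN2. FOXS1, a gene of pericytes, retained 3, with fragments that hold the starts of MYLK2 (28 kb), XKR7 (115 kb) and TM9SF4 (262 kb). FOXK2 retained a contact with the start of TEX19, 160 kb away, FOXN2 with the start of PPP1R21, 124 kb away, and FOXF1 with the start of AC092327.1 in LINC00917, 166 kb away. The only PIR of FOXI2 in the merged lists lay on another chromosome (chr3:59154466-59155179), with merged scores of 30.3 in ESCs and 24.7 in NECs, and it was called in both ESC replicates and in NEC replicate 2. The promoters of FOXN1, FOXL2, FOXI1, FOXO6, FOXJ2, FOXL1 and FOXR2 had 0 to 8 PIRs in a replicate, with overlapping cell types and no retained, gained or lost contact. No bait was listed for FOXJ3, FOXO3, FOXK1, FOXO3B, FOXD4 and its copies, so their contacts were not analysed here.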

How the data were processed

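Per the labels and the methods of the study, the authors aligned RNA-seq reads to GRCh37 (TopHat2 2.0.8b, Bowtie 1.0.0) and counted them per Ensembl gene in unstranded libraries, and the deposited values are raw counts. For PCHi-C the authors scored pairs of HindIII fragments with CHiCAGO, and the deposited score is listed from 12 upwards for each replicate and for both replicates pooled. The conventional Hi-C libraries were not used here.

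From the counts, edgeR 4.0.16 in R 4.3.3 was run over all 31017 genes: filterByExpr (minimum count 10) kept 17564, TMM scaled them, and the quasi-likelihood test with Benjamini-Hochberg adjustment was applied. DESeq2 1.42.0 was an alternative. A prior count of 0.125 entered the log2 fold changes. Their SE was derived from the quasi-likelihood F statistic, as the absolute change divided by the square root of that statistic. Replicates were compared as labelled, and p-values measure the spread between 2 libraries a group. Baits were assigned by the gene start of the count table, and positions and exon lengths come from a GRCh37 annotation. Scripts were tested on simulated data. Genes named with values were all called genes, genes past the adjusted p alone, the 5 highest per kb, and promoters with the most PIRs, non-overlapping replicates or retained, gained or lost contacts. From lists, only the 2 largest and 2 smallest changes among the called were named, and the other list genes given with values (markers beside FOXA1, FOXB2 and FOXQ1, DNAH11, FOXP1-AS1 and FOXP1-IT1) were chosen after their values were seen. A further gene that meets the symbol rule is not reported here and is left out of the forkhead counts. The members and lists were chosen with earlier results of these data known.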

Additional observations from a re-analysis of the deposited data

How the results depend on the processing

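For the 18 forkhead genes past the adjusted p, 196 log2 fold changes were computed under alternatives that refit or rescale the counts, and none changed sign. Of these, 185 stayed on the same side of the call limits, 10 lost the call and 1 gained it. An adjusted p of 0.05 or above arose under at least 1 alternative for 6 of the 18 (FOXC1, FOXD2, FOXK1, FOXK2, FOXM1 and FOXO3), in each case without an ESC library, and for FOXC1 and FOXD2 also with DESeq2. The numbers called (7 higher, 5 lower) stayed within 1.5 times under other scalings, filters and tests, at 5 to 9 higher and 4 to 5 lower, and were 11 and 7 without the fold limit. Leaving out each library in turn gave 4 to 7 genes called higher and 4 to 6 lower; the 4 higher came without ESC replicate 2, when FOXD2, FOXC1 and FOXP4 lost the call. The replicate numbers did not pair the libraries (correlation of the deviations from the group means 0.0485), and with the replicate number as a block 7 genes were called higher and 5 lower.

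Contacts depended more on the settings, and the cause was not tested. The alternatives below were computed for forkhead promoters only. No share over all baits stands beside their counts, so they cannot be compared with those of other promoters. At a score of at least 15, forkhead promoters had 75 PIRs in ESCs and 78 in NECs, 34 shared, with 4 retained, 0 gained, 2 lost, 1 contact between forkhead promoters, and 1 promoter higher in ESCs beyond its replicates. With PIRs within 10 kb counted as shared, 167 were shared, 37 retained and 3 lost. Baits at any transcript start gave 6 contacts between forkhead promoters. Without pairs of baits, 8 promoters were higher in NECs, and 13 contacts were retained, 1 gained and 2 lost. The highest 2 of 5 score groups gave 7 gained and 11 lost, and no limit on the merged score 20 and 18. Leaving out each replicate in turn gave 9 to 11 promoters higher in NECs, 7 to 10 higher in ESCs, 28 to 38 retained, 3 to 12 gained and 5 to 16 lost contacts, since fewer replicates then have to meet each rule. Promoters higher in NECs were 11 and 10 without ESC replicates 1 and 2 and 11 and 9 without NEC replicates 1 and 2. Promoters higher in ESCs were 10 without ESC replicate 2 and 8 without NEC replicate 1, retained contacts 38 without NEC replicate 2, gained contacts 10 and 12 without NEC replicates 1 and 2, and lost contacts 13 and 16 without ESC replicates 1 and 2. Without read numbers, no error could be given for a single score.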
